A study of Rattus norvegicus with 180 samples.

Results

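The miRNAs described here are the miR-10 and miR-196 families, which are encoded inside the Hox gene clusters: rno-miR-10a-5p, rno-miR-10b, rno-miR-196a, rno-miR-196b and rno-miR-196c. They were chosen by name and not by any measured value, though with earlier results of these data known. They are 5 of the 717 miRNAs on the array. miRNAs were measured in organs of male Sprague-Dawley rats aged 10 weeks on 1-colour Agilent rat miRNA arrays, in which fluorescently labelled RNA of 1 sample binds to spotted probes. 55 organs were taken from the same 3 rats, numbered 4, 5 and 6, after saline perfusion to wash out blood, with 1 array per organ and rat. Liver, kidney, lung, heart atrium and heart interventricular septum were also taken from 3 rats that were not perfused, numbered 1, 2 and 3, which gave 15 arrays. No rat was treated otherwise, and all were of 1 strain and 1 sex. On 8 of the 180 arrays (medulla oblongata, pituitary gland, the 3 spinal cord levels and the 3 hind limb muscles of rat 5 by title) another label field carried the number of rat 6, and the title was used.

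Hox genes encode transcription factors that give cells their position along the head to tail axis of the embryo, and within each cluster the genes at one end are switched on nearer the head than those at the other. The miR-10 genes lie in the part of the clusters that is active further towards the head, and the miR-196 genes in the part that is active in the trunk and further back. Both families are known to repress messenger RNAs, several Hox messenger RNAs among them, by pairing through the seed, the bases near the 5′ end of the miRNA.

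All 5 members were found by name in RefSeq (assembly GRCr8). The mature sequences are shown because members of a family differ by single bases, which bears on how far the probes can tell them apart. They are written 5′ to 3′ with the seed (bases 2 to 8) in capitals.
rno-miR-10a-5p: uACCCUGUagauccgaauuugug
rno-miR-10b: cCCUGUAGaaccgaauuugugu
rno-miR-196a: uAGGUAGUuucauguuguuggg
rno-miR-196b: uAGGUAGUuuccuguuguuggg
rno-miR-196c: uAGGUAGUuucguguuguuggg
The first, miR-10a-5p, lies at chr10:81779730-81779752 on the + strand, between Hoxb5 and Hoxb4. miR-10b lies at chr3:80035886-80035907 on the + strand, inside Hoxd4 and between Hoxd8 and Hoxd3. miR-196a lies at chr7:135988900-135988921 on the + strand, between Hoxc10 and Hoxc9. miR-196b lies at chr4:82661149-82661170 on the - strand, between Hoxa9 and Hoxa10. miR-196c lies at chr10:81727561-81727582 on the + strand, between Hoxb13 and Hoxb9, in the same Hoxb cluster as miR-10a.

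The miR-196 members share their seed and differ at 1 position, counted from the 5′ end: A12C from miR-196a to miR-196b, A12G from miR-196a to miR-196c and C12G from miR-196b to miR-196c. Over the 21 positions that both entries cover, miR-10b differs from miR-10a-5p by U12A, counted in miR-10a-5p. The RefSeq entry of miR-10b starts 2 bases further 3′, so that its bases 2 to 8 are not those of miR-10a-5p, although its hairpin continues 5′ with the bases UA. The bases of the array's probes were not used here, and how much of the signal of a member came from its close relative was not tested. Levels are therefore compared for 1 miRNA between organs. Ratios of 2 members within an array are given further on to compare organs, and the same limit holds for them.

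Signals are linear intensities, scaled so that the 75th percentile of 37 miRNAs, those with a signal on every array, was the same in each. Anything lower than 10.8, the median over arrays of the lowest detected signal, was raised to that value, called the floor below. Detection required that the scanner software put more than 50% of the spots of a miRNA well above background. An array detected a median of 161.5 miRNAs (86 to 244), and no spot used was saturated. The pancreas arrays were dim before scaling, with a 75th percentile of 68.0 to 121 against up to 6343 elsewhere, so that pancreas signals of 79.3 to 111 for miR-196a were not detected and say little. Differences between organs were tested with limma (two-sided) over the 345 miRNAs that passed the filter on detection, in 1 fit of all arrays of the perfused rats, and called at a Benjamini-Hochberg adjusted p under 0.05. Differences are given on the log2 scale with their standard error (SE).

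The 2 families were detected over different stretches of the body. miR-10a-5p was detected on 158 of the 180 arrays and on all 3 arrays of 44 of the 55 organs. For miR-10b this was 141 arrays and 39 organs. miR-196a was detected on 55 arrays and in all 3 rats in 16 organs, miR-196b on 60 arrays and in 17 organs, and miR-196c on 40 arrays and in 9 organs. No miR-196 member was detected on any array of the 13 head or the 4 neck organs. The miR-10 members were detected in all 3 rats in all 4 neck organs, miR-10a-5p in 3 of the 13 head organs (medulla oblongata, tongue and parotid gland) and miR-10b in 4 (Harderian gland in addition). Each of the 12 organs of the pelvis and hind limb held both miR-10 members in all 3 rats, 8 held miR-196a, 10 held miR-196b and 2 held miR-196c. In the thorax, miR-196b in the thymus, with 37.8, 48.6 and 52.4 in rats 4, 5 and 6, was the only miR-196 signal detected in all 3 rats.

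**Figure D1:**
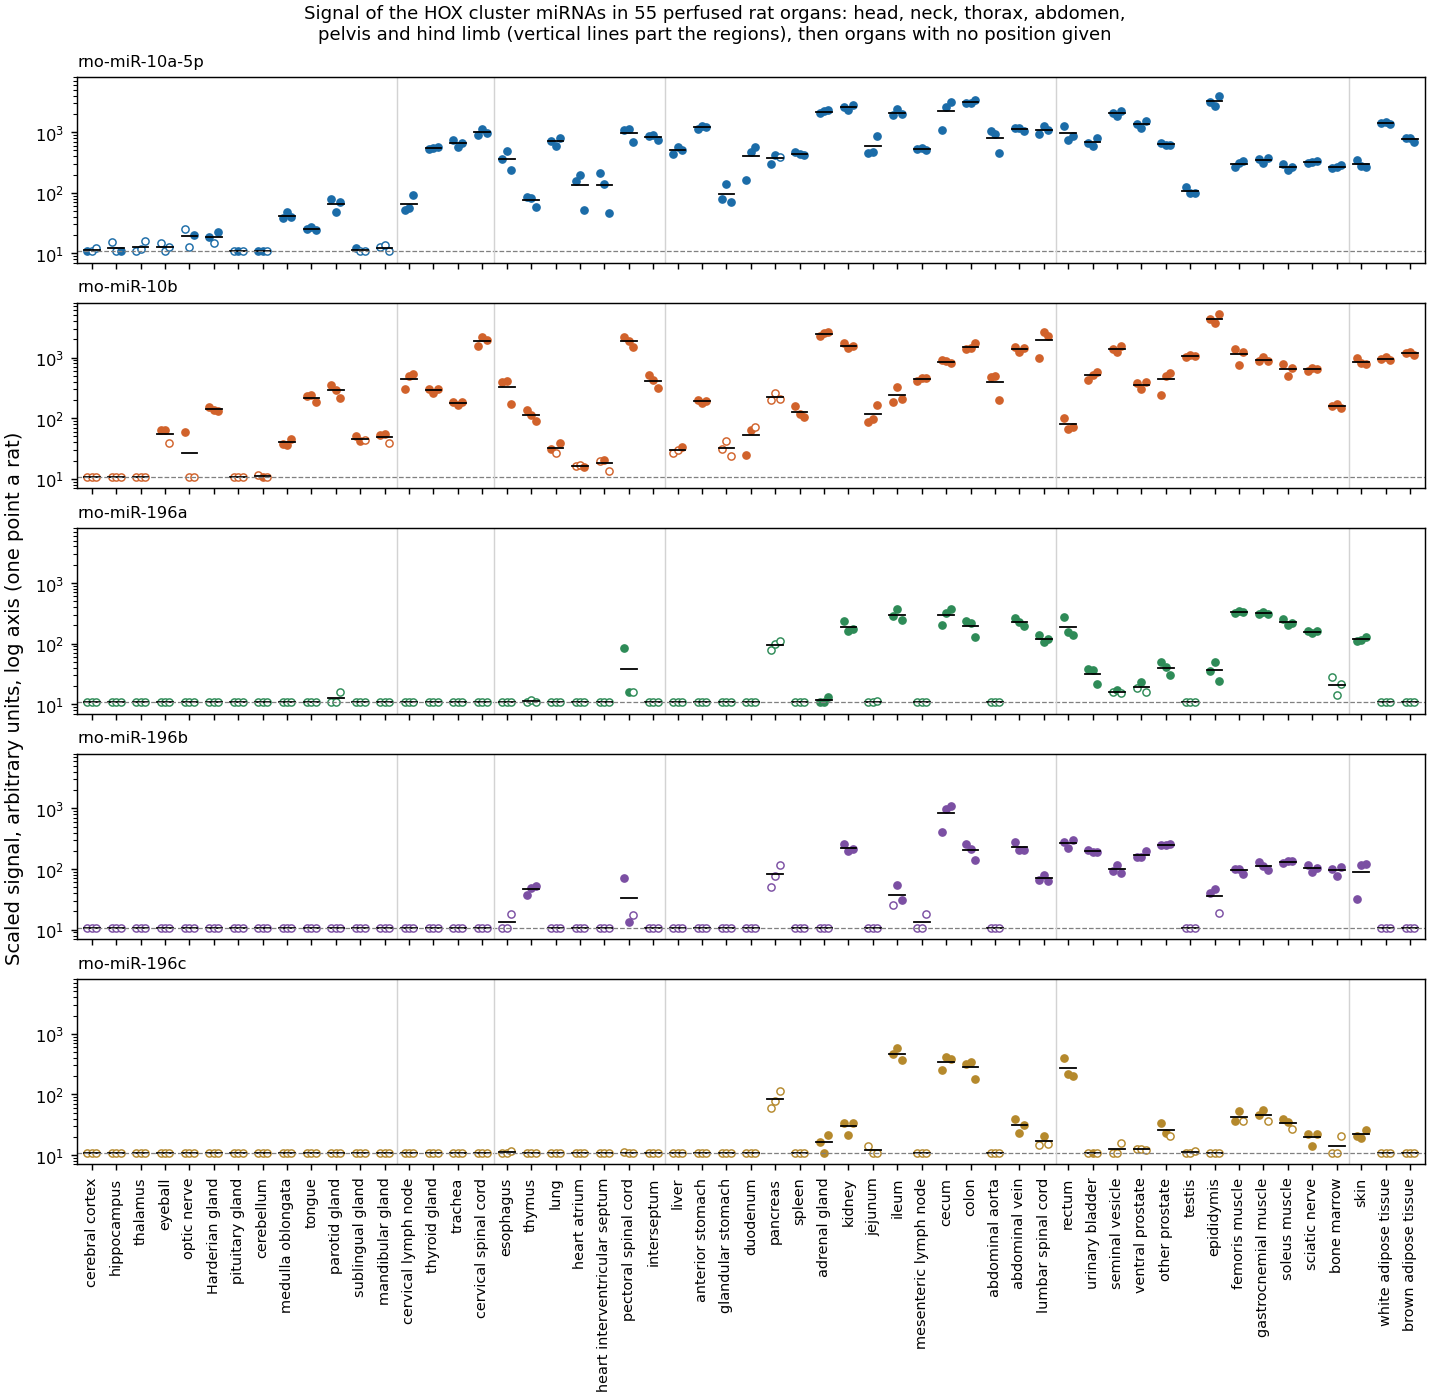
Scaled signal intensity (log axis) of the 5 members in each of the 55 organs of the 3 perfused rats, ordered from head to tail. Each point is 1 array, filled where detected and open where not, bars are means and the dashed line is the floor of 10.8, and no array of head or neck is filled for a miR-196 member.

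The highest levels of both miR-10 members were in the epididymis, the duct that stores sperm. There, miR-10a-5p was at 3104, 2679 and 3925 in rats 4, 5 and 6 (mean 3236 ± 633, SD, n = 3). Colon (3137 ± 219.8), kidney (2588 ± 204), cecum (2268 ± 1060.5), adrenal gland (2188 ± 112), ileum (2106 ± 261) and seminal vesicle (2054 ± 191) followed. Neighbours in this order mostly overlapped: of the 54 pairs of neighbours in the order of levels, 4 had ranges over rats that did not overlap. miR-10b in the epididymis was at 4253, 3659.8 and 5239 (mean 4384 ± 798), above every array of the next organ, the adrenal gland (2479 ± 187). Lumbar (1955 ± 862), cervical (1909 ± 317) and pectoral spinal cord (1845 ± 358) came after it and overlapped one another. For miR-10b too, 4 of the 54 neighbouring pairs did not overlap.

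The miR-196 members had other leading organs. miR-196a was highest in femoris muscle, with 317, 346 and 333 in rats 4, 5 and 6 (mean 332 ± 14.4), and gastrocnemial muscle (315 ± 14.2), ileum (301 ± 61.9), cecum (299 ± 88.8) and abdominal vein (227 ± 36.1) followed. miR-196b was highest in the cecum, with 403, 981 and 1106 (mean 830.4 ± 375), all above the next organ, the rectum (266 ± 40.1). The part of the prostate labelled other prostate (250.1 ± 3.66), abdominal vein (229.6 ± 40.9) and kidney (220.5 ± 31.2) came next. miR-196c was highest in 4 consecutive gut segments: ileum (468 ± 111), cecum (348 ± 84.3), colon (280.0 ± 90.8) and rectum (273 ± 109), which overlapped one another and not the organ after them. Of the 54 neighbouring pairs, 3 did not overlap for miR-196a, 3 for miR-196b and 2 for miR-196c. In the other organs outside the pancreas, miR-196c was at most 54.7 on any array.

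Over the 52 organs with a position, the organ means rose with the order from head to tail, with a Spearman rho of 0.62 for miR-10a-5p, 0.65 for miR-10b, 0.71 for miR-196a, 0.72 for miR-196b and 0.68 for miR-196c. Pearson r was 0.72, 0.66, 0.62, 0.69 and 0.40 in the same order of members, and many organs share the floor for the miR-196 members. These coefficients are descriptions, given without p, because the organs share rats and slides and the order was set by hand. The mean over the 12 pelvis and hind limb organs was compared with that over the 13 head organs. All 5 members were higher, against 40.3% of the 345 miRNAs tested. The difference was 5.05 for miR-10a-5p (adjusted p = 2.16e-85, limma), 4.11 for miR-10b (2.81e-75), 2.44 for miR-196a (4.25e-66), 3.21 for miR-196b (1.63e-70) and 1.08 for miR-196c (2.89e-40). Errors of such means over organs cover the spread between rats within an organ, not the spread between organs. The median over the members was 3.21, and over all miRNAs tested it was 0.00. Cell markers moved with this comparison: all 3 neuron miRNAs (-4.47 to -2.22) and both oligodendrocyte miRNAs were lower, and all 4 smooth muscle and stroma (1.62 to 2.02), all 4 striated muscle (0.95 to 2.56), all 4 blood, all 4 gut epithelium and all 6 epithelium miRNAs were higher. Their part was not tested.

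Where a miRNA was detected on every array of 1 group and on none of the other, a bound is given beside the fitted difference. It sets the mean of the bright group against the mean, over the dim group's arrays, of the lowest detected signal or the miRNA's own signal, whichever was higher. It can exceed the fitted fold, because the common floor lies above the lowest detected signal of many arrays. No bound is given where only some arrays of the brighter group detected the miRNA, since the others enter at the floor and the size of the difference then depends on it. This holds for pelvis and hind limb against the head, where miR-196a was detected on 26, miR-196b on 32 and miR-196c on 15 of 36 arrays, against 0 of 39 for each in the head.

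Within the central nervous system the miR-10 members were near the floor in the brain and high in the spinal cord. In the cerebral cortex, miR-10a-5p was at 10.8, 10.8 and 12.3 in rats 4, 5 and 6, in the hippocampus at 15.4, 10.8 and 11.0, in the thalamus at 10.8, 11.8 and 16.1 and in the cerebellum at 10.8, 11.0 and 10.8. The medulla oblongata, the hindmost part of the brain, had 38.4, 47.9 and 40.3. The cervical cord had 907, 1148 and 952, the pectoral cord 1093, 1133 and 688, and the lumbar cord 933, 1249.7 and 1082. These 3 groups (brain, medulla, cord) did not overlap. For miR-10b, the medulla had 38.2, 36.8 and 46.1, the cervical cord 1565, 2188 and 1975, the pectoral cord 2192, 1866 and 1477, and the lumbar cord 989, 2647 and 2229.7, while no brain array outside the medulla was above 11.5.

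Against the mean of cortex, hippocampus, thalamus and cerebellum, the 3 cord levels had more miR-10a-5p (log2 difference 6.42, SE 0.16, adjusted p = 6.86e-66, limma) and more miR-10b (7.40, SE 0.16, 2.15e-71). In those brain organs miR-10a-5p was detected on 4 of 12 arrays and miR-10b on 1 of 12, so that the size of both differences depends on the floor. miR-196a (1.61, SE 0.12, 4.81e-24) and miR-196b (1.31, SE 0.14, 1.39e-14), each detected on 5 of 9 cord arrays and 0 of 12 brain arrays, also passed, so that 4 of the 5 members were higher, against 21.2% of the 345 miRNAs tested. With normexp background correction, which adds an offset of 50 to each spot before scaling, 2 members did not pass. They were miR-196a (0.49, adjusted p = 0.0669, limma) and miR-196b (0.31, 0.352). miR-196c missed the threshold in the main fit (0.21, adjusted p = 0.0626, limma). It passed in a fit of all 180 arrays (0.21, 0.0448) and with a floor 4 times as low (1.25, 5.34e-10), so that its call depends on the setting. All 3 neuron miRNAs were lower in the cord (-2.29 to -0.87), both oligodendrocyte miRNAs higher (1.55 to 1.92), 2 of the 4 smooth muscle and stroma miRNAs higher, 2 of the 4 striated muscle miRNAs higher (up to 3.08), 3 of the 4 blood miRNAs higher (up to 2.97) and 1 of the 4 gut epithelium miRNAs lower (-0.55). Their part in the differences was not tested. In the medulla, 2 of the 5 members were higher than in the same brain organs, against 13.0% of all tested: miR-10a-5p by 1.84 (SE 0.24, 5.07e-11) and miR-10b by 1.88 (SE 0.24, 3.53e-11). No miR-196 member was detected in the medulla. The 2 medulla differences did not pass with the normexp background correction or with a floor 4 times as high. Both oligodendrocyte miRNAs were higher in the medulla (1.28 to 1.83) and all 3 neuron miRNAs lower (-1.26 to -0.54). Of the striated muscle (up to 2.65) and the smooth muscle and stroma miRNAs (up to 0.79), 1 of 4 each was higher, 1 of the 4 gut epithelium miRNAs was lower, and the part of these cells was not tested.

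**Figure D2:**
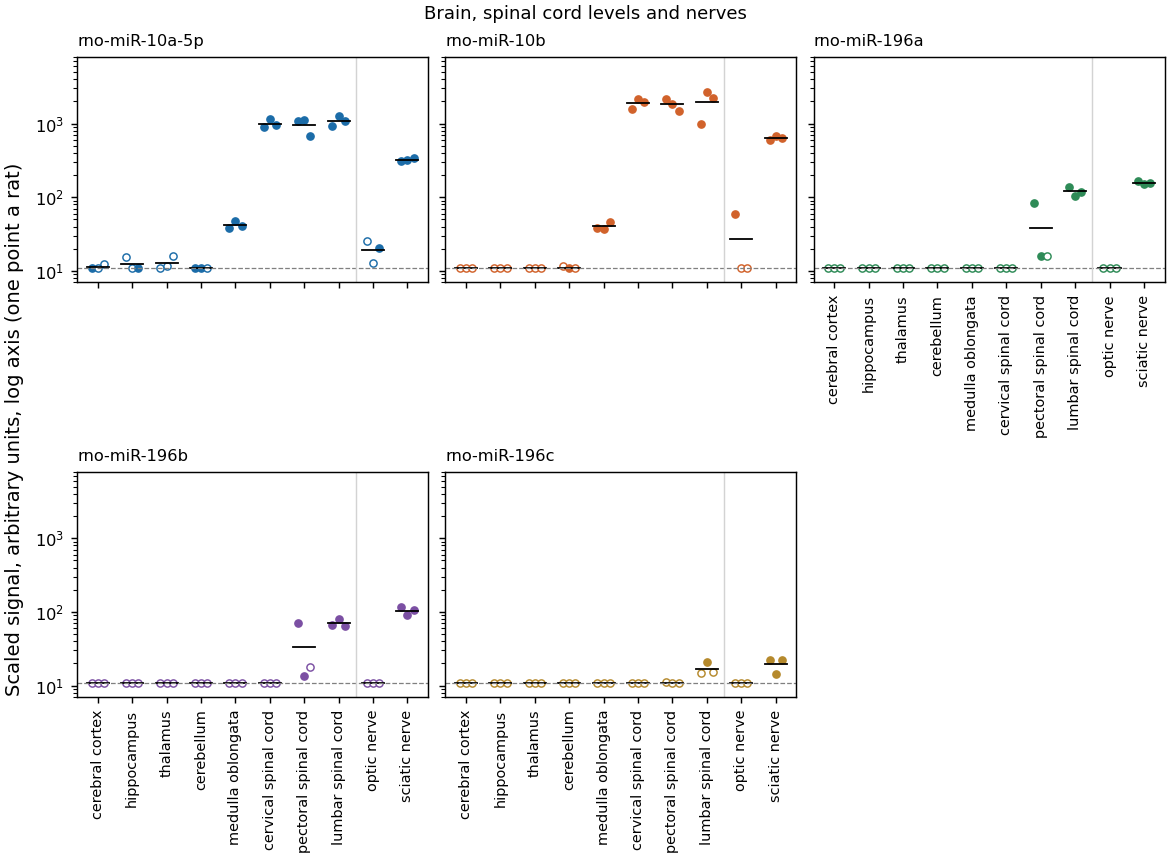
Scaled signal intensity (log axis) of the members in brain organs, spinal cord levels and nerves of the 3 perfused rats. Points are arrays (filled where detected, open where not), bars are means and the dashed line is the floor, and the miR-10 members step up between medulla oblongata and cervical cord, while miR-196a and miR-196b have their highest means in lumbar cord and sciatic nerve.

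Along the spinal cord itself the families differed. Between lumbar and cervical cord the miR-10 members showed no difference past the threshold: 0.12 for miR-10a-5p (95% interval -0.47 to 0.71) and -0.07 for miR-10b (-0.67 to 0.53). miR-196a was not detected in the cervical cord of any rat, was at 83.4, 16.2 and 15.8 in the pectoral cord (detected in 2 rats) and at 136, 105 and 119 in the lumbar cord. miR-196b was not detected in the cervical cord, was at 70.2, 13.6 and 17.7 in the pectoral cord (detected in 2 rats) and at 66.5, 79.4 and 64.2 in the lumbar cord. The lumbar values were alike in the 3 rats, while in the pectoral cord rat 4 was far above the other two.

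Lumbar minus cervical cord gave 3 of the 5 members higher, against 4.64% of all tested. The difference was 3.46 for miR-196a (SE 0.22, adjusted p = 1.6e-27, limma), with 3.65, 3.28 and 3.46 in rats 4, 5 and 6, and the bound was at least 15.8-fold. miR-196b differed by 2.69 (SE 0.26, 1.67e-15), with 2.62, 2.87 and 2.57, and by at least 9.00-fold. A fit of these organs alone gave an adjusted p of 0.000164 and 0.000364 (limma). Both entered it only through their detection in the lumbar cord, so that it adds no separate support. Neither passed with the normexp background correction (1.08 and 0.59). miR-196c was low in the lumbar cord (14.8, 20.6 and 15.3, detected in 1 rat). Its difference of 0.62 (0.00805) did not hold without the 8 arrays with conflicting rat numbers (0.47, 0.117), without rat 4 or rat 5, under any of 3 other scalings (the 75th percentile over all miRNAs, quantile normalization and the authors' table) or with the higher floor.

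The steps between neighbouring levels were less even between the rats. From cervical to pectoral cord 2 of the 5 members were higher, against 1.45% of all tested: miR-196a by 1.36 (adjusted p = 4.29e-06, limma), with 2.94, 0.58 and 0.54 in rats 4, 5 and 6, and miR-196b by 1.24 (0.00113), with 2.70, 0.33 and 0.71. Without rat 4, neither passed (0.56 and 0.52), nor did they under any of the 3 other scalings, with normexp or with the higher floor. From pectoral to lumbar cord 3 of the 5 were higher, also against 1.45%: miR-196a by 2.11 (1.28e-13), with 0.71, 2.70 and 2.91, miR-196b by 1.44 (1.41e-05), with -0.08, 2.55 and 1.86, and miR-196c by 0.60 (0.0342). miR-196a passed whichever rat was left out, miR-196b did not without rat 5 (0.89, 0.104), and miR-196c did not without any 1 of the 3. In the fit of the compared organs alone miR-196a and miR-196b did not pass (adjusted p = 0.925 for each, limma), nor did they with normexp (0.71 and 0.25). With the higher floor miR-196b lost its call too (0.45, adjusted p = 0.144, limma), and miR-196c went to 0.00. Under the 3 other scalings miR-196c was at 0.00, 0.00 and 0.09 and did not pass. All cord arrays of a rat were on 1 slide.

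Markers of other cells moved with the cord levels. From cervical to pectoral cord, 1 of the 4 blood miRNAs (1.00) and 1 of the 4 smooth muscle and stroma miRNAs (1.48) were higher, with a summed blood signal of 118, 219 and 113 in the cervical and 286, 491 and 290 in the pectoral cord of rats 4, 5 and 6. From pectoral to lumbar cord, 1 of the 2 oligodendrocyte miRNAs was lower (-1.41). From cervical to lumbar cord, the 3 neuron miRNAs were lower (-0.69 to -0.54), 1 of the 2 oligodendrocyte miRNAs was lower (-1.44), 2 of the 4 smooth muscle and stroma miRNAs were higher, and 2 of the 4 blood miRNAs were higher. In the lumbar cord the summed blood signal was 1551, 337 and 219 and the summed neuron signal 1643, 6511 and 3412 in rats 4, 5 and 6, where the miR-196a and miR-196b levels were alike. The summed signal of the smooth muscle and stroma list was 505 to 642 in the cervical cord, 426 to 916 in the pectoral cord and 942 to 1319 in the lumbar cord. In the pectoral cord it was 916, 864 and 426 in rats 4, 5 and 6. The part of such cells in the miR-196 differences was not tested. In whole organs, fewer cells of a type and less RNA per cell cannot be told apart.

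The sciatic nerve, a peripheral nerve of the hind limb, held all 5 members, and the optic nerve, a tract of the central nervous system, little of any. In the sciatic nerve, miR-10a-5p was at 312, 317 and 337, miR-10b at 594, 674 and 641, miR-196a at 164, 149 and 159, miR-196b at 115, 90.7 and 105 and miR-196c at 22.5, 14.2 and 22.5, in rats 4, 5 and 6. In the optic nerve miR-10a-5p was at 25.5, 12.8 and 20.4 and miR-10b at 59.8, 10.8 and 10.8, each detected on 1 array, and no miR-196 member was detected. All 5 members were higher in the sciatic nerve, against 13.6% of all tested. The difference was 4.10 for miR-10a-5p (SE 0.30, adjusted p = 1.77e-24, limma) and 5.05 for miR-10b (SE 0.30, 1.03e-30). With detection on only 1 of the 3 optic nerve arrays, neither size is exact, and that of miR-10b depends on the floor.

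For the miR-196 members the same difference was 3.86 for miR-196a (2.96e-32, at least 13.2-fold), 3.25 for miR-196b (2.15e-21, at least 8.65-fold) and 0.83 for miR-196c (5.8e-05, at least 1.62-fold). With normexp, miR-196b (0.58) no longer passed and miR-196c turned to -0.16, and miR-196c went to 0.00 with the higher floor. The optic nerve of rat 4, the array with miR-10b at 59.8, had a summed striated muscle signal of 4979 against 23.3 and 21.2 in rats 5 and 6, and a summed smooth muscle and stroma signal of 3313 against 692 and 723. All 4 smooth muscle and stroma miRNAs were higher in the sciatic nerve (1.32 to 1.73), as were 2 of the 4 blood miRNAs (up to 2.22). All 3 neuron miRNAs (-4.40 to -2.25), 1 of the 2 oligodendrocyte miRNAs (-5.93) and 1 of the 4 gut epithelium miRNAs (-0.73) were lower. The difference in miR-10b was 3.31, 5.96 and 5.89 in rats 4, 5 and 6. The part of these cells was not tested.

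Among the organs of striated muscle, the families differed in how the hind limb compared with the rest. The organs were the tongue, the organ labelled interseptum, which the labels do not define further, and the femoris, gastrocnemial and soleus muscles of the hind limb. The summed signal of the striated muscle miRNAs was 90208 to 116844 in the interseptum, 31907 to 32979 in the tongue and 61991 to 170324 in the hind limb muscles, and the heart muscle miRNAs were at 0 in all of them. miR-10a-5p was at 24.9, 26.9 and 24.6 in the tongue, 856, 895 and 752 in the interseptum, 263, 306 and 335 in femoris, 366, 312 and 375 in gastrocnemial and 302, 239 and 267 in soleus muscle. miR-10b was at 228, 245 and 184 in the tongue, 511, 419 and 316 in the interseptum, 1386, 743 and 1256 in femoris, 885, 1023 and 876 in gastrocnemial and 793, 496 and 684 in soleus muscle. So miR-10a-5p peaked in the interseptum, and miR-10b lay highest in the hind limb, where soleus and interseptum overlapped slightly.

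The miR-196 members were not detected in tongue or interseptum. miR-196a was at 317, 346 and 333 in femoris, 312, 331 and 303 in gastrocnemial and 255, 203 and 215 in soleus muscle. miR-196b was at 102, 102 and 83.0 in femoris, 129, 112 and 95.3 in gastrocnemial and 124, 136 and 137 in soleus muscle. miR-196c was between 26.6 and 54.7 on the 9 arrays. All hind limb arrays thus lay above the floor for each miR-196 member.

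Hind limb muscle minus tongue gave all 5 members higher, against 22.0% of all tested. The difference was 3.58 for miR-10a-5p (SE 0.24, adjusted p = 2.42e-26, limma), 1.99 for miR-10b (SE 0.25, 1.31e-11), 4.72 for miR-196a (SE 0.18, 1.4e-47, at least 36.4-fold), 3.37 for miR-196b (SE 0.21, 2.53e-28, at least 14.2-fold) and 1.87 for miR-196c (SE 0.15, 8.9e-22). miR-196c, detected on 6 of the 9 hind limb arrays, lost its call with normexp (0.59, 0.271) and with the higher floor (0.082). The tongue held epithelium, with a summed signal of 912 to 1021 for the epithelium miRNAs against at most 9.92 in the hind limb muscles, and 5 of those 6 miRNAs were lower in the hind limb. Higher in the hind limb were miR-499 (2.82), 2 of the 4 striated muscle miRNAs, 2 of the 4 blood miRNAs (up to 1.55) and 1 of the 3 neuron miRNAs (0.72), and 1 of the 2 oligodendrocyte miRNAs was lower (-1.92). No pair of hind limb and tongue arrays of a rat shared a slide, and the part of these cells and of the slide was not tested.

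Hind limb muscle minus interseptum gave 4 of the 5 members higher, against 1.74% of all tested, and 1 lower, against 7.25%. miR-10a-5p was lower by 2.74-fold (-1.45, SE 0.24, adjusted p = 1.38e-06, limma), in each of the 3 rats. miR-10b was higher (1.09, SE 0.25, 7.39e-04), but no longer passed without rat 6 (0.87, 0.131) or with the slide as a fixed block (0.87, 0.143). miR-196a (4.72, 4.21e-47, at least 20.2-fold), miR-196b (3.37, 7.6e-28, at least 7.88-fold) and miR-196c (1.87, 2.23e-21) were higher. The miR-196c call was lost with normexp (0.47, 0.932) and with the higher floor (0.082). None of the 4 striated muscle miRNAs passed here, while miR-499, of slow and heart muscle (-2.19), and 1 of the 2 oligodendrocyte miRNAs (-1.21) were lower in the hind limb, and their part was not tested.

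From tongue to interseptum 2 of the 5 members were higher, against 21.4% of all tested: miR-10a-5p by 5.03 (SE 0.30, adjusted p = 1.11e-30, limma) and miR-10b by 0.90 (SE 0.30, 0.0159). In the interseptum 5 of the 6 epithelium miRNAs were lower, and miR-499 (5.00), 1 of the 4 striated muscle miRNAs, 2 of the 4 blood miRNAs (up to 2.26) and 1 of the 3 neuron miRNAs (1.04) were higher. The part of these cells was not tested. The miR-10b call was lost under 6 other settings and without rat 5 or rat 6, with differences of 0.51 to 0.97. Between 2 muscles of 1 limb level, soleus and gastrocnemial, 0 of the 5 members passed in either direction in limma, against 10.1% of all tested. At an unadjusted p under 0.05 in limma, 2 members did, as did 66 of the 345 miRNAs tested. The members were miR-196a (-0.50, interval -0.93 to -0.06) and miR-196c (-0.44, interval -0.80 to -0.08), both lower in soleus. Higher in soleus were miR-499 (2.69) and 1 of the 4 smooth muscle and stroma miRNAs (1.21).

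**Figure D3:**
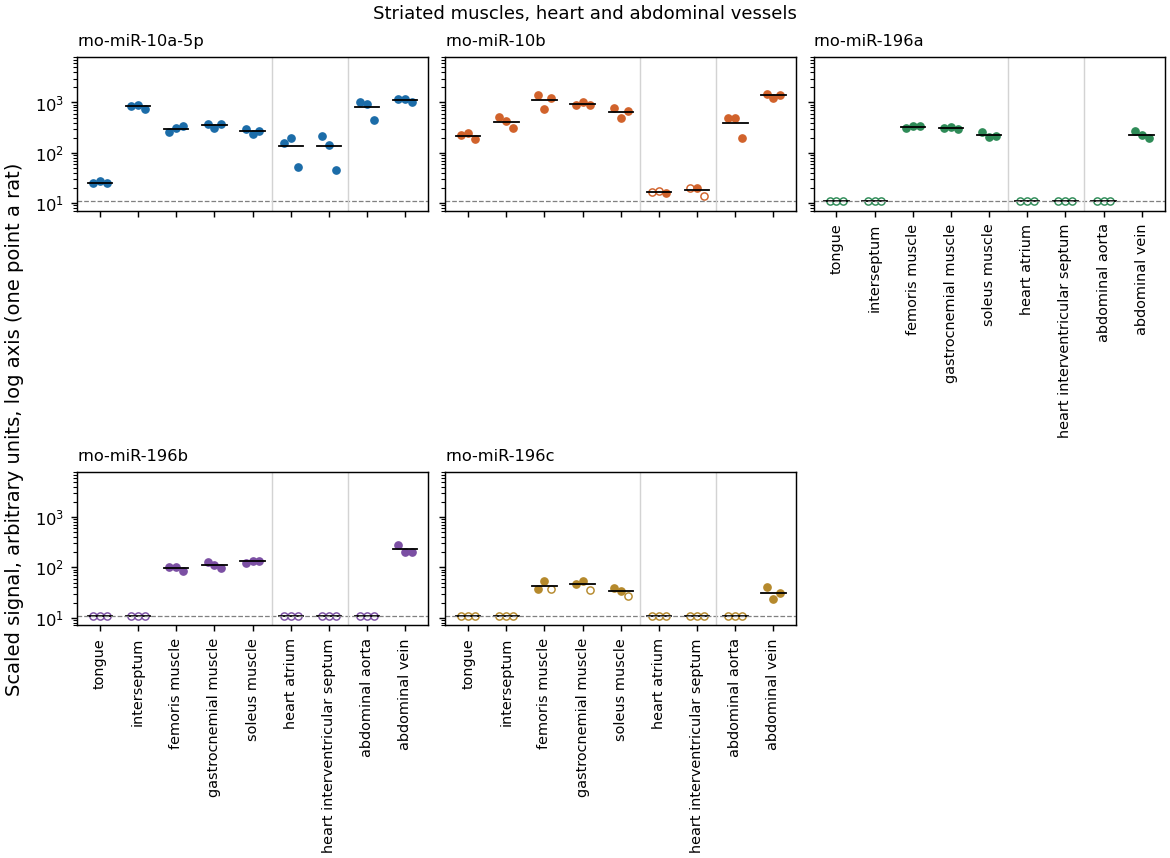
Scaled signal intensity (log axis) of the members in tongue, interseptum, hind limb muscles, heart, aorta and vein of the 3 perfused rats, with points for arrays (filled where detected), bars for means and a dashed line for the floor. The miR-196 members leave the floor in the hind limb muscles and in the abdominal vein, and not in tongue, interseptum, heart or aorta.

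The abdominal vein and the abdominal aorta run side by side and differed in the miR-196 members, a comparison added after the levels were seen. miR-196a was at 265, 223 and 193 in the vein, and miR-196b at 277, 206 and 206, while neither was detected in the aorta. miR-196c was at 39.9, 23.4 and 31.5 in the vein and not detected in the aorta. miR-10b was at 1499, 1235 and 1423 in the vein and at 483, 499.6 and 199 in the aorta, and miR-10a-5p at 1186, 1175 and 1037 against 1035, 925 and 453. No vein array overlapped the aorta arrays for any member, but for miR-10a-5p the nearest arrays were at 1037 and 1035. The share of all miRNAs tested without overlap is not given here, so nothing particular to the members follows.

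4 of the 5 members were higher in the vein, against 20.3% of all tested: miR-196a by 4.38 (SE 0.22, adjusted p = 6e-36, limma, at least 48.3-fold), miR-196b by 4.39 (SE 0.26, 5.37e-30, at least 48.7-fold), miR-196c by 1.51 (SE 0.18, 8.29e-12, at least 6.61-fold) and miR-10b by 1.93 (SE 0.30, 6.56e-08). miR-10a-5p did not pass (0.58, interval -0.01 to 1.17, 0.206). In a fit of these vessels alone, adjusted p for miR-10b was 0.0156 (limma). Of all 345 miRNAs tested, 70 were higher and 5 lower in the vein. With the 75th percentile over all miRNAs of the array, miR-10b went to 0.79 (adjusted p = 0.0578, limma), and miR-196c went to 0.00 with normexp and with the higher floor. None of the 4 smooth muscle and stroma miRNAs differed past the threshold, 3 of the 4 blood miRNAs were higher in the vein, and miR-338 of the oligodendrocyte list was at 141 to 217 in the vein against 13.3 to 52.8 in the aorta. The part of these cells was not tested, and each rat's 2 vessels shared a slide.

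In the digestive tract, the members were first detected at different segments. By the methods, the samples from duodenum to rectum were mucosal epithelium scraped from the segment, which is not said of the stomach. miR-10a-5p was at 1121, 1255 and 1208 in the anterior stomach and at 79.2, 139 and 70.2 in the glandular stomach. Further down it was at 163, 476 and 561 in the duodenum, 450.4, 471 and 878 in the jejunum, 1918, 2404 and 1996 in the ileum, 1087, 2576 and 3139 in the cecum, 3000.2, 3021 and 3391 in the colon and 1282, 731 and 876 in the rectum. miR-10b was at 203, 178 and 189.9 in the anterior stomach and not detected in the glandular stomach. It was at 24.8, 63.0 and 70.5 in the duodenum, 87.6, 95.3 and 166 in the jejunum, 184, 323 and 207 in the ileum, 897, 882 and 803 in the cecum, 1396, 1450.3 and 1713 in the colon and 102, 66.8 and 72.5 in the rectum. Both therefore were highest in the colon among the gut segments, and the rectum lay below every colon array.

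The miR-196 members were not detected in stomach, duodenum or jejunum. miR-196a was at 284, 369 and 249 in the ileum, 201, 324 and 373 in the cecum, 238, 216 and 127 in the colon and 271, 155 and 141 in the rectum. miR-196c was at 458, 584 and 363, at 252, 408 and 385, at 316, 347 and 177 and at 398, 218 and 202 in the same segments. Both members were thus first detected in the ileum and in every segment after it. miR-196b was at 25.9, 55.1 and 30.9 in the ileum (detected in 2 rats), at 403, 981 and 1106 in the cecum, at 263, 212 and 140.1 in the colon and at 279.9, 220.4 and 297 in the rectum, so that it was highest 1 segment further on.

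**Figure D4:**
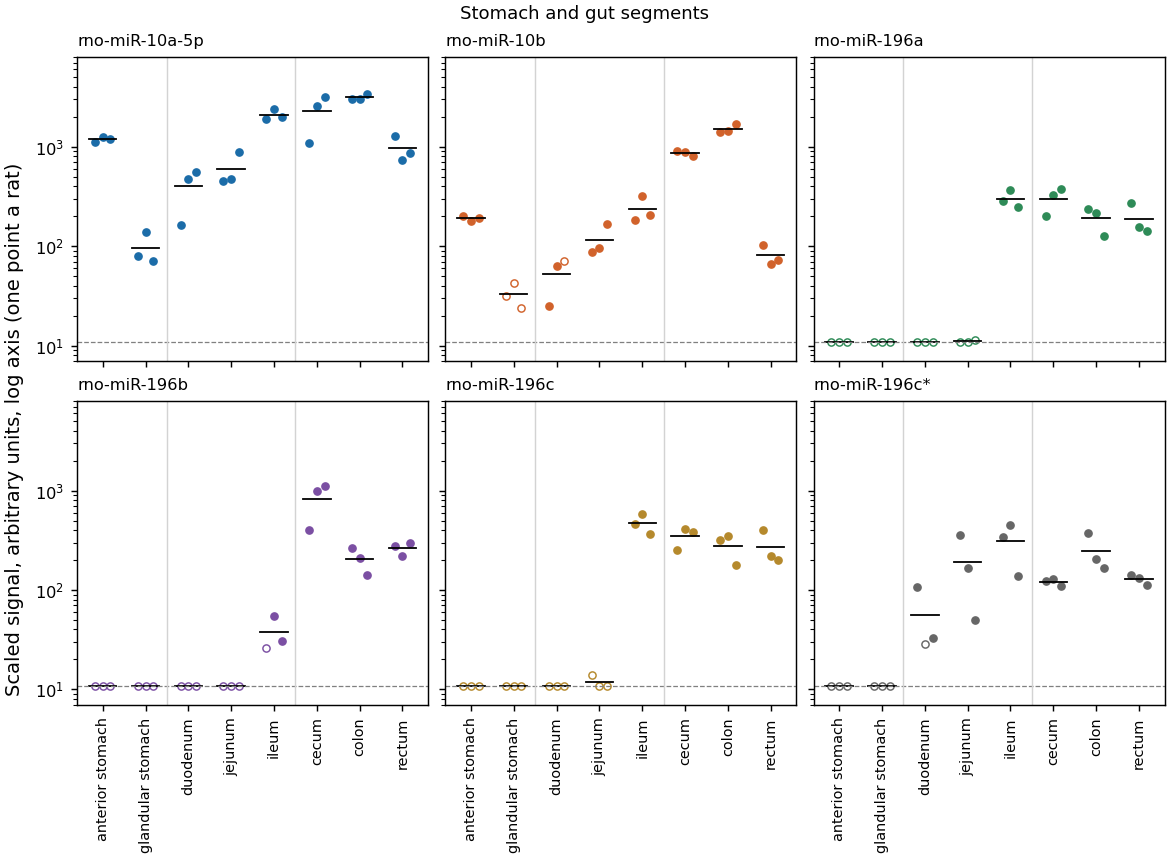
Scaled signal intensity (log axis) of the members and of miR-196c*, the other strand of the miR-196c hairpin, along the gut from anterior stomach to rectum in the 3 perfused rats. Points are arrays (filled where detected, open where not), bars are means and the dashed line is the floor, and points are first filled in the ileum for the miR-196 members, with miR-196b highest in the cecum.

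From glandular stomach to duodenum 1 of the 5 members was higher, against 22.3% of all tested: miR-10a-5p by 1.94 (SE 0.30, adjusted p = 1.94e-08, limma). In a fit of these organs alone its adjusted p was 0.016 (limma). The kind of sample differed in that step, and all 4 gut epithelium miRNAs were higher in the duodenum (3.02 to 11.47), so that segment and sampling cannot be told apart. Also higher in the duodenum were 2 of the 4 blood miRNAs (up to 4.09), 1 of the 2 oligodendrocyte miRNAs (1.94), 2 of the 6 epithelium miRNAs (up to 1.21) and 1 of the 4 smooth muscle and stroma miRNAs (0.83), and their part was not tested. From duodenum to ileum all 5 were higher, against 8.41% of all tested. The difference was 2.58 for miR-10a-5p (2.72e-12), 2.27 for miR-10b (5.13e-10), 4.77 for miR-196a (1.33e-39, at least 10.3-fold), 5.41 for miR-196c (1.2e-52, at least 16.0-fold) and 1.71 for miR-196b (5.11e-08). In a fit of duodenum and ileum alone, adjusted p was 0.0192 for miR-10a-5p and 0.0245 for miR-10b (limma). The duodenum arrays had a high detection limit, with a lowest detected signal of 24.8 to 31.9. With normexp, miR-196a (0.22, adjusted p = 0.577, limma) and miR-196c (0.69, 0.0723) lost their calls, miR-10b turned to -0.25 and miR-196b to -1.14 (0.00315). miR-196b also lost its call in the authors' table (0.68, 0.0586) and with the higher floor (0.12), and in the ileum it was close to the detection limit of the duodenum. In the ileum 2 of the 4 smooth muscle and stroma miRNAs were higher, 3 of the 4 gut epithelium and 2 of the 4 blood miRNAs were lower, and their part was not tested.

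From ileum to cecum 2 of the 5 members were higher, against 9.28% of all tested. They were miR-196b by 4.43 (SE 0.26, adjusted p = 1.15e-30, limma) and miR-10b by 3.72-fold (1.90, SE 0.30, 1.4e-07). In rats 4, 5 and 6 the miR-196b difference was 3.96, 4.15 and 5.16. Its size is approximate, because miR-196b was detected on only 2 of the 3 ileum arrays. miR-10a-5p differed by -0.02 (interval -0.61 to 0.57), miR-196a by -0.03 (-0.47 to 0.40) and miR-196c by -0.43 (-0.79 to -0.07, 0.0686). The difference in miR-196c passed under 5 other settings with all rats and without rat 6 (-0.69). All 4 gut epithelium miRNAs (-4.94 to -1.45) and 3 of the 6 epithelium miRNAs were lower in the cecum, and 1 of the 4 smooth muscle and stroma and 2 of the 4 blood miRNAs (up to 1.98) were higher. Their part was not tested. Each rat's duodenum, ileum and cecum arrays shared a slide.

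From colon to rectum the miR-10 members fell, and the miR-196 members showed no difference past the threshold. Lower in the rectum were 2 of the 5 members, against 22.3% of all tested: miR-10b by 19.1-fold (-4.26, SE 0.30, adjusted p = 1.75e-24, limma), with -3.77, -4.44 and -4.56 in rats 4, 5 and 6, and miR-10a-5p by 3.34-fold (-1.74, SE 0.30, 4.39e-07). miR-196a differed by -0.05 (interval -0.48 to 0.39), miR-196b by 0.41 (-0.11 to 0.93) and miR-196c by -0.05 (-0.41 to 0.31). Under 3 other scalings, which moved the median of the detected miRNAs by 0.84 to 0.93 in this comparison, miR-196a (0.85 to 0.89), miR-196b (1.21 to 1.34) and miR-196c (0.66 to 0.88) were higher in the rectum instead. With the 75th percentile over all miRNAs, miR-10a-5p lost its call (-0.81, 0.0643). The cause was not tested.

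The smooth muscle and stroma miRNAs moved with the miR-10 members in that step. All 4 were lower in the rectum (-3.42 to -2.17), with a summed signal of 263 to 472 against 2193 to 4326 in the colon, and 3 of the 4 gut epithelium miRNAs were higher. Also lower were 2 of the 4 blood (down to -2.89), 1 of the 3 neuron (-0.73) and 1 of the 2 oligodendrocyte miRNAs (-1.73). Their part in the miR-10 difference was not tested. Over the whole intestine, the mean of cecum, colon and rectum exceeded that of duodenum, jejunum and ileum for all 5 members, against 5.8% of all tested. The differences were 1.28 for miR-10a-5p (SE 0.17, adjusted p = 1.55e-10, limma), 2.13 for miR-10b (SE 0.17, 5.56e-21), 2.71 for miR-196a (SE 0.13, 1.98e-39), 4.41 for miR-196b (SE 0.15, 3.31e-52) and 2.89 for miR-196c (SE 0.10, 4.75e-50). With normexp, miR-196a went to -0.01 and miR-196c to 0.15 (0.49), so that 3 members passed. All 4 gut epithelium miRNAs were lower in the large intestine (-4.78 to -1.25), as were 2 of the 6 epithelium miRNAs and 1 each of the smooth muscle and stroma, blood, neuron and oligodendrocyte lists (-0.86 to -0.53), and their part was not tested.

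The other strand of the miR-196c hairpin was also read in the gut, and it is shown because its pattern differed from that of miR-196c. RefSeq lists it as rno-miR-196c-3p, at chr10:81727598-81727619 on the + strand.
rno-miR-196c*: aCAACAACaccaaaccaccuga
Its seed, in capitals, differs from that of the 5′ strand. It was detected on 18 arrays and in all 3 rats in 5 organs, all of them gut segments. In the duodenum it was at 106, 28.6 and 33.0 (detected in 2 rats) and in the jejunum at 357, 164.9 and 49.8, where miR-196c itself was not detected. In the ileum it was at 340.0, 453 and 137, in the cecum at 122, 128 and 109, in the colon at 373, 207 and 164.5 and in the rectum at 142, 132 and 112. It rose from glandular stomach to duodenum (2.10, adjusted p = 4.21e-14, limma), a step in which the kind of sample changed too, and from duodenum to ileum (2.57, 3.53e-18). It fell from ileum to cecum (-1.21, 8.04e-06) and from colon to rectum (-0.86, 0.00137), each in all 3 rats. Between large and small intestine its mean log2 level was higher in the large intestine (0.32, 0.041), in 2 of the 3 rats, while the mean signal was lower there (166 against 185). Across the 55 organs its Pearson r with miR-196c was 0.75 (Spearman rho 0.43), and it was about as high with miR-483* (0.75, rho 0.55), miR-3564 (0.74, rho 0.65) and miR-664-1* (0.73, rho 0.75). The other strands of the remaining hairpins were rarely detected: miR-10a-3p on 5 arrays, miR-10b* on 7, and miR-196a* and miR-196b* on 0. rno-miR-615, from another hairpin within a Hox cluster, was detected on 0 arrays.

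Lymph nodes gave the same kind of organ at a pair of positions. miR-10a-5p was at 51.0, 55.2 and 91.2 in the cervical node and at 529.6, 541 and 516 in the mesenteric node, and miR-10b at 302, 494 and 539 and at 411, 457 and 457. The first did not overlap and the second did. Mesenteric minus cervical node gave 1 of the 5 members higher, against 3.48% of all tested: miR-10a-5p by 8.32-fold (3.06, SE 0.30, adjusted p = 1.37e-15, limma). The difference in miR-10b was 0.03 (interval -0.57 to 0.63). No miR-196 member was detected in either node. All 6 epithelium miRNAs were lower in the mesenteric node (-2.30 to -1.15), and their part was not tested.

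Several organs away from these series held members of their own pattern. In the kidney, miR-10a-5p (2642, 2362 and 2759.9), miR-10b (1709, 1444 and 1569), miR-196a (232, 160.5 and 177) and miR-196b (255, 195 and 212) were all among the higher levels. In the testis, miR-10b was at 1017, 1089.5 and 1056 and miR-10a-5p at 124, 97.7 and 99.9, and no miR-196 member was detected. Several urogenital organs of the pelvis, though not the testis, held miR-196b: 209, 189.8 and 191 in urinary bladder, 157, 159 and 199.6 in ventral prostate, 249.8, 247 and 254 in other prostate, and 93.5, 117 and 85.7 in seminal vesicle. Bone marrow had miR-196b at 100.3, 77.1 and 109.8, and skin had miR-196a at 112, 115 and 129.6.

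Ratios of a pair of members within an array show where the members changed unequally. They are given to compare organs, and how much of a signal came from a close relative was not tested. Away from the floor they do not depend on the scaling. Near it they do a little: for miR-196c to miR-196a the authors' table gave 0.39 in place of 0.43 in the adrenal gland and -2.51 in place of -2.45 in the skin. The log2 ratio of miR-10b to miR-10a-5p could be formed in the 38 organs that detected both in all 3 rats. It ran from -3.56 in rectum, -3.18 in ileum and -2.65 in anterior stomach to 2.76 in cervical lymph node, 3.10 in tongue and 3.30 in testis, a span of 6.87, or 117-fold. The log2 ratio of miR-196b to miR-196a, in 13 organs, ran from -1.80 in femoris muscle to 2.66 in urinary bladder and 2.68 in other prostate, a span of 4.48. That of miR-196c to miR-196a, in 9 organs, fell into a low set of sciatic nerve (-3.03), abdominal vein (-2.87), kidney (-2.69) and skin (-2.45) and a high set of cecum (0.23), adrenal gland (0.43), rectum (0.52), colon (0.52) and ileum (0.63). In the adrenal gland both members were near the floor.

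**Figure D5:**
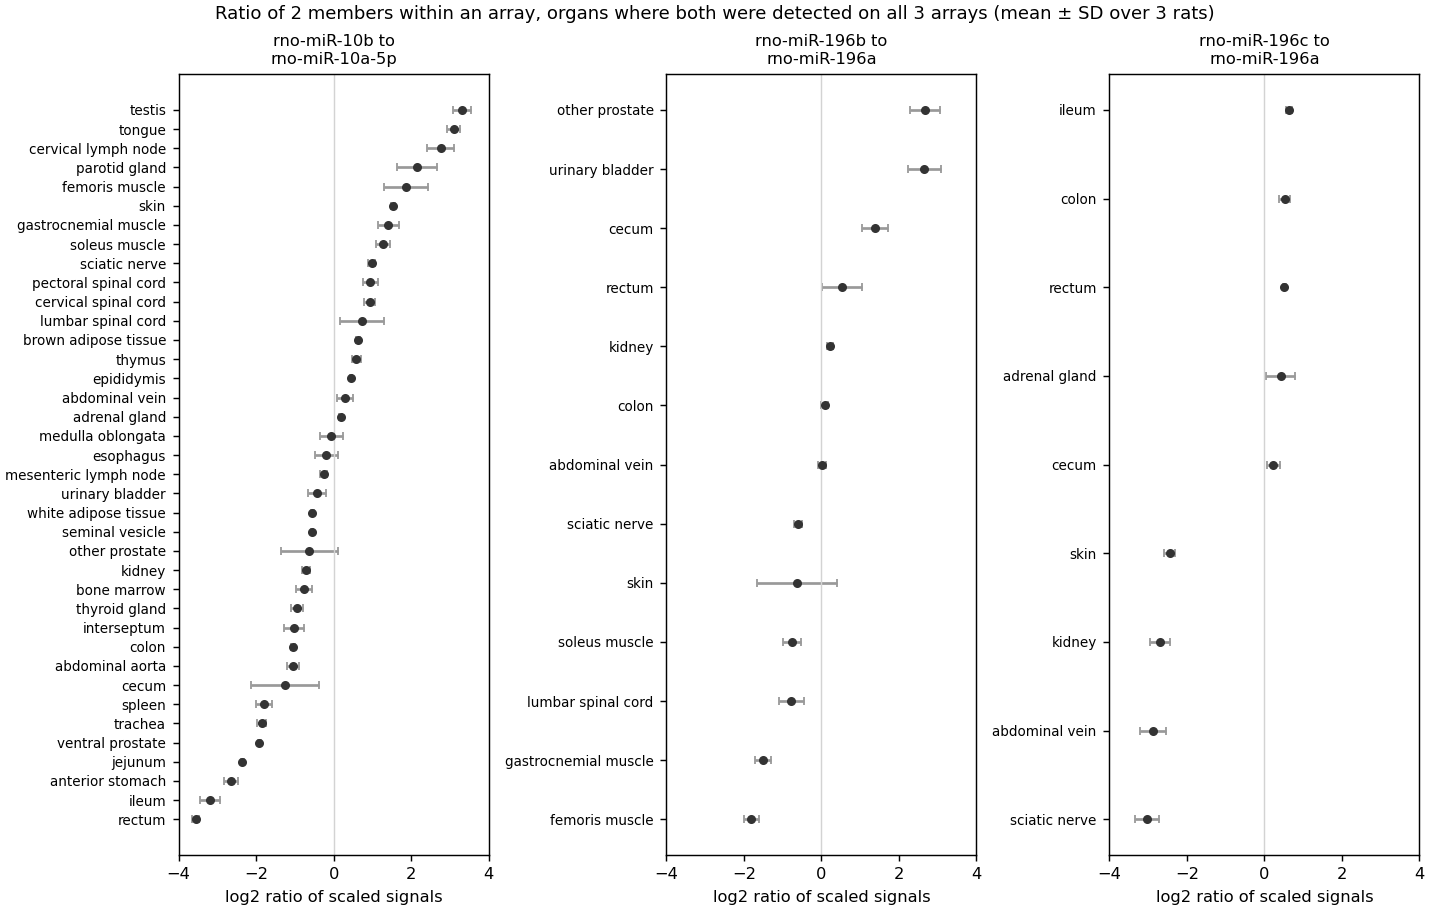
Log2 ratio of 1 member to another within an array, by organ, as the mean with its SD over 3 perfused rats, for the organs in which both members were detected in all 3 rats. The ratio of miR-10b to miR-10a-5p spans 117-fold between rectum and testis, and that of miR-196c to miR-196a is high in ileum, cecum, colon and rectum and low in sciatic nerve, vein, kidney and skin.

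In 12 comparisons, the 3 ratios were compared between 6 pairs of organs with an exact permutation test (two-sided), in which 3 arrays against 3 cannot give a p under 0.1. The log2 ratio of miR-10b to miR-10a-5p differed by -0.19 between lumbar and cervical cord (exact p = 0.9) and by 2.44 between gastrocnemial muscle and interseptum (exact p = 0.1). No ratio was formed for rectum against duodenum, or for miR-196b to miR-196a in those cord levels and muscles, because a member was not detected on every array. The other comparisons were added after the levels were seen. Rectum and colon differed by -2.52 and cecum and ileum by 1.92 (exact p = 0.1 for each). For miR-196b to miR-196a, colon and gastrocnemial muscle differed by 1.59 (exact p = 0.1), and for miR-196c to miR-196a, rectum and colon differed by less than 0.01 (exact p = 1.0). Values of 0.1 became 0.15 after Benjamini-Hochberg adjustment over the 12 comparisons, so none passed.

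The probes of each member were compared as a check on the levels. Over the 180 arrays the 2 probe sequences of a member correlated with a Pearson r of 0.992 for miR-10a-5p, 0.958 for miR-10b, 0.995 for miR-196a and 0.979 for miR-196b, and the lowest r between the 4 probe sequences of miR-196c was 0.812. Across the 55 organs, Pearson r of log2 organ means was 0.73 between the miR-10 members, 0.83 between miR-196a and miR-196b, 0.81 between miR-196a and miR-196c and 0.67 between miR-196b and miR-196c. Between a miR-10 and a miR-196 member it was 0.26 to 0.49. Many of these points share the floor.

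Among the 339 other miRNAs tested, none followed a member as closely as its own relatives did, except for miR-196c. The most alike, by Pearson r over the 55 organs, were miR-28 (0.47), miR-27a (0.46) and miR-199a-5p (0.44) for miR-10a-5p, and miR-199a-5p (0.55), miR-214 (0.53) and miR-199a-3p (0.52) for miR-10b. For miR-196a they were miR-3564 (0.40), miR-27a (0.35) and miR-483* (0.35), and for miR-196b miR-200b* (0.31), miR-199a-5p (0.31) and miR-214 (0.28). For miR-196c they were miR-3564 (0.72), miR-483* (0.67) and miR-664-1* (0.63), with lower Spearman rho of 0.33, 0.44 and 0.35.

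Perfusion was compared to see whether blood left in an organ moved the members. In limma over 191 miRNAs and 30 arrays, 0 of the 5 members passed in any of the 5 organs, against 0.0% of all tested in liver, 0.0% in kidney, 0.0% in lung, 0.0% in heart atrium and 0.0% in heart interventricular septum. So miR-451 and miR-144 did not pass either, which the paper describes as blood cell miRNAs evident only without perfusion. The test therefore cannot show whether blood moved the members. At an unadjusted p under 0.05, 11, 4, 12, 4 and 3 miRNAs differed in those organs, and 0 members did. In the kidney, miR-10a-5p was at 2618, 2653 and 2480.1 in rats 1, 2 and 3 without perfusion, against 2642, 2362 and 2759.9 with it. The member difference of the greatest size was that of miR-10a-5p in the interventricular septum, -0.70 (interval -1.52 to 0.12), where the perfused rats had 214, 140.5 and 46.3 and the others 166, 194 and 184. The effect of perfusion did not differ between the 5 organs past the threshold for any member (adjusted p = 1.0 for each, limma).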

How the data were processed

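Total RNA of each organ was labelled with Cy3 and hybridised to a custom Agilent rat miRNA array. The deposited files are scanner output of Agilent Feature Extraction 10.7.3, in which the authors gave linear signal intensity values per spot and calls of detection. The authors' value table holds intensity values that the methods describe as scaled to the 75th percentile, and served as an alternative. It lists 2 miRNAs fewer.

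The processed signal was averaged over spots of a probe sequence, without outliers, and these means were averaged again for each of 717 miRNAs. It was divided by the array's 75th percentile over 37 miRNAs (those detected throughout), multiplied by the mean of those percentiles (2118), floored at 10.8 and taken to log2. miRNAs detected in all 3 rats of at least 1 organ were tested: 345 for organs and 191 for perfusion. limma 3.58.1 in R 4.3.3 fitted 1 term per organ, tested on simulated data. Ratios and tables were made with Python 3.11.15, scipy 1.17.1 and pandas 2.3.3. The number of arrays, 3 per organ, limits the precision. Many miRNAs lie at the floor in most organs, which lowers their fitted spread, and a fit of the compared organs alone was added after the data were seen. For miR-10a-5p from duodenum to ileum it gave an adjusted p of 0.0192 in place of 2.72e-12 (limma). The small adjusted p-values of the main fit thus rest on a spread shared over all organs.

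Organs of a rat come from the same animal, so the rat number pairs them. Residuals of arrays of the same rat had a mean correlation of 0.0496 (0.0332, 0.0611 and 0.0544 for rats 4, 5 and 6) and those of different rats -0.0246. The arrays lay on 23 slides scanned on 3 days. The miRNAs described, the marker lists and the comparisons were chosen with earlier results of these data known. Named miRNAs were the members, the other strands of their hairpins with miR-615, and the 3 miRNAs most alike each member over organs. From the paper, miR-451 and miR-144 were named. Of the marker lists only some miRNAs were named, such as miR-499 and miR-338, and the others were counted by list.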

Additional observations from a re-analysis of the deposited data

How the results depend on the processing

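Over the alternatives, 1953 results on single members kept direction and side of the threshold, 68 lost and 23 gained a call, and 11 reversed. The results that kept their side include those with no call to lose, such as all on perfusion. Under normexp alone 87 were kept, 19 lost and 4 gained a call, and 5 reversed. With the rat as a replicate block, all 90 results on members kept their call, for example 6.42 for miR-10a-5p between cord and brain, and no call changed. The causes of the changes below were not tested, except that the filter on detection at 50% of the arrays left miR-10a-5p and miR-10b alone among the members. The share of all miRNAs called under each alternative is not given here. The counts of members below therefore cannot tell a change in the members from a change over all miRNAs.

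Under normexp background correction, computed from median spot signals, the members called fell to 2 for cord minus brain, 0 for medulla minus brain, 0 for each step and span within the cord, 3 for sciatic minus optic nerve, 1 for interseptum minus tongue, 2 for ileum minus duodenum and 3 for large minus small intestine, and rose to 5 for duodenum minus glandular stomach. It reversed miR-196c between lumbar and pectoral cord (-0.060) and between the nerves (-0.16), miR-10b (-0.25) and miR-196b (-1.14) between ileum and duodenum, and miR-196a between large and small intestine (-0.012). Under the 50% filter the count was 0 for each cord comparison, 1 for cecum minus ileum and for vein minus aorta, and 2 for cord minus brain, sciatic minus optic nerve, hind limb minus tongue, hind limb minus interseptum, ileum minus duodenum, large minus small intestine and pelvis and hind limb minus head.

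With the 75th percentile over all miRNAs, quantile normalization and the authors' table, pectoral minus cervical cord fell to 0, 0 and 0, interseptum minus tongue to 1, 1 and 1, and rectum minus colon rose to 4, 5 and 5 members called. In that comparison miR-196a reversed to 0.89, 0.85 and 0.87 and miR-196c to 0.88, 0.66 and 0.86, while the median of all detected miRNAs moved by 0.93, 0.84 and 0.91. A floor 4 times as high gave 0 for medulla minus brain and pectoral minus cervical cord, 1 for lumbar minus pectoral cord and 1 for soleus minus gastrocnemial muscle. A floor 4 times as low gave 3 for duodenum minus glandular stomach and 2 for mesenteric minus cervical node. The slide as a fixed block gave 1 for interseptum minus tongue. In a fit of the compared organs alone, added after the data were seen, pectoral minus cervical and lumbar minus pectoral cord gave 0.

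Leaving out 1 rat at a time gave 0 to 2 members called for pectoral minus cervical cord (0 without rat 4), 1 to 2 for lumbar minus pectoral cord (1 without rat 5), 1 to 2 for interseptum minus tongue (1 without rat 5 or rat 6), 0 to 1 for soleus minus gastrocnemial muscle (1 without rat 4) and 1 to 2 for duodenum minus glandular stomach (2 without rat 4). Signal over background limits the miR-196 members, since they lie at the floor in most organs, where the size of a difference depends on the floor.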
